A study of Rattus norvegicus with 33 samples.

Results

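The mammary gland of adult nulliparous rats, which had never been pregnant, was set against the gland of pre-pubertal rats. Groups followed the developmental stage in the labels, and 15 of the 33 arrays of the series carried these stages. Nulliparous glands were taken at postnatal day 181 (5 arrays) and pre-pubertal glands at day 21 (10 arrays). The rats of both groups were females of the outbred Sprague-Dawley strain, kept as vehicle controls in work on environmental chemicals. All had olive oil by stomach tube, 0.5 mL a time up to day 63 and 1 mL from then to day 180, so the adult rats had it for longer and at the larger volume. The labels place weaning at day 28, so the rats of day 21 were still with their dams. Caudal glands number 5, left and right, were pulverised whole, and in such bulk tissue fewer cells of a type and less RNA per cell cannot be told apart. All rats of a stage were killed on 1 day and at any phase of the estrous cycle, so age and day of collection cannot be told apart, and the hour is not given in the labels.

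Batch 1 was the only labelled batch with both groups, and its 3 nulliparous and 6 pre-pubertal arrays gave the main result. Batch 2 held the other 4 pre-pubertal arrays. Batch 3 held the other 2 nulliparous arrays, from glands extracted with a Zymo kit in place of the Promega kit of batches 1 and 2. The labels give that kit to adult glands that were fattier, so the 3 nulliparous glands of batch 1 are not a random draw with respect to fat. A model of all 33 arrays with terms for stage and batch is given beside the main result. The labels speak of 5 animals at each stage, while 10 arrays carry the pre-pubertal stage, each under its own number. Whether any of these arrays share a rat is not stated, and where they do the p-values are too small.

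Before puberty the mammary gland is a small tree of epithelial ducts at one end of a pad of fat and connective tissue. From puberty on, ovarian steroids, growth hormone, IGF1 and prolactin make the ducts lengthen and branch through the pad, and each estrous cycle of the adult virgin adds and removes small alveolar buds. Luminal cells line the ducts, basal myoepithelial cells surround them, and prolactin acting through its receptor, the kinase JAK2 and the transcription factor STAT5 induces milk protein genes in the luminal cells.

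Values are log2 array signals, so that a difference of 1 is a doubling, and 10986 genes above a floor of 7.65 log2 units in at least 3 arrays were tested. Where a group lay below that floor, a difference is given on the log2 scale of array signal and not as a fold. "Rose", "fell" and "called" are used of an adjusted p under 0.05 (limma, two-sided, Benjamini-Hochberg over all genes tested). In batch 1, 2305 genes, 21.0% of those tested, differed between nulliparous and pre-pubertal glands. Of them 1182 (10.8%) rose and 1123 (10.2%) fell. By array signal the rises were larger: 343 genes rose by at least 2-fold and 154 fell by as much, and 28 rose by at least 8-fold against 1 that fell by as much. The arrays of the 2 groups did not overlap for 2444 genes (22.2%), of which 1975 were called. These shares are the background for the list counts and the statements of no overlap below. The median difference over all genes tested was -0.03 log2 units. In the model of all arrays 3206 genes (29.2%) were called, 1627 up (14.8%) and 1579 down (14.4%). It called 2115 of the 2305 genes again in the same direction and 0 in the opposite direction, and all 2305 kept their sign; the 2 fits share the 9 arrays of batch 1. Leaving out nulliparous replicate 1 or 2 cut the count to 1292 and 1143.

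**Figure D1:**
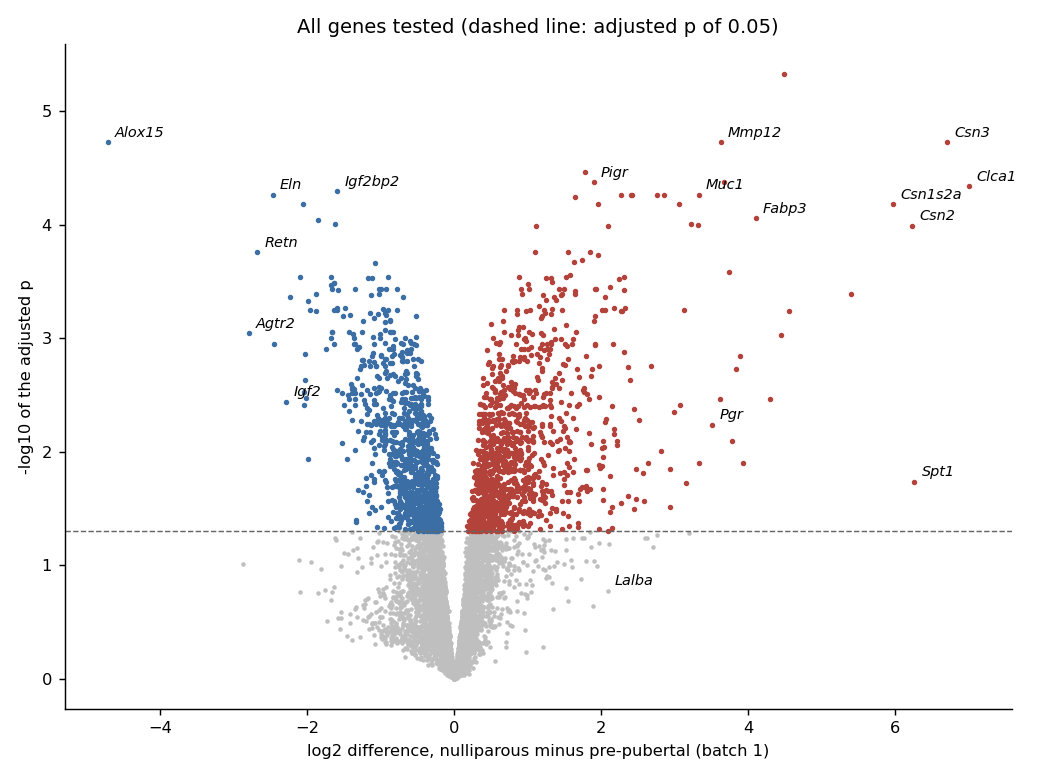
Plot of the 10986 genes tested in batch 1, 1 point a gene. The horizontal axis is the log2 difference, nulliparous minus pre-pubertal, and the vertical axis is -log10 of the adjusted p. Red points rose and blue points fell at an adjusted p under 0.05, and grey points did not pass. The largest rise is that of Clca1 (7.0 log2 units), and the largest fall that of Alox15 (-4.72).

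Some arrays stood apart within their group in the genes of other tissues. The mean of 18 T cell genes was 7.56, 7.49 and 9.64 in the nulliparous arrays and 10.25, 9.56, 9.80, 9.83, 9.14 and 6.86 in the pre-pubertal arrays. Nulliparous replicate 3 and pre-pubertal replicate 8 thus lay on the other group's side, and 12 B cell genes and 12 lymph node genes had the same 2 arrays apart. The mean of 17 skeletal muscle genes was 7.47 in nulliparous replicate 1 and 8.19 in pre-pubertal replicate 7, and between 6.61 and 6.87 in the other 7 arrays. The mean of 20 luminal epithelial genes ran from 9.40 to 9.91 in nulliparous arrays and from 6.65 (replicate 2) to 9.34 (replicate 8) in pre-pubertal arrays. Without nulliparous replicate 3 and pre-pubertal replicate 8, 3466 genes were called. Without nulliparous replicate 1 and pre-pubertal replicate 7, 862 were called, with 2 nulliparous arrays left. Of 12 measured genes of a skin list, 1 passed the filter.

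**Figure D2:**
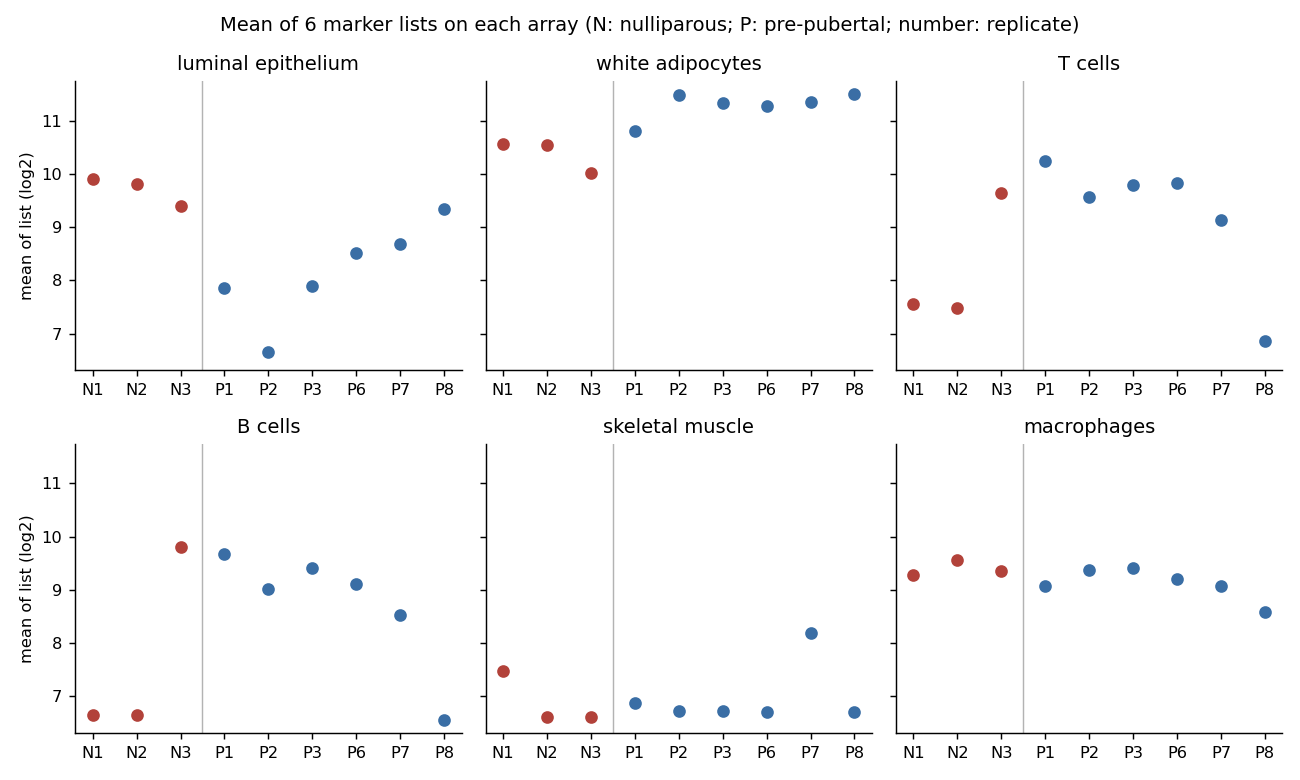
Mean log2 value of 6 marker lists on each of the 9 arrays of batch 1, nulliparous (N, red) left of pre-pubertal (P, blue), numbered by replicate. N3 and P8 change sides in the T cell and B cell lists, N1 and P7 are high in skeletal muscle, and the luminal epithelium list is lowest in P2.

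Milk protein genes were among the largest rises. Of 17 tested genes of milk proteins and milk secretion, 12 rose and 0 fell, with a median difference of 2.01 log2 units against -0.03 over all genes. Csn3, kappa-casein, which stabilises the casein micelle, read 13.39, 13.52 and 13.48 in nulliparous arrays and 6.07 to 7.84 (median 6.70) in pre-pubertal arrays. The groups lay far apart, with most pre-pubertal arrays below the floor and the nulliparous arrays close to the highest value of any deposited array, 14.23. The difference in signal was 6.70 ± 0.34 (SE; adjusted p = 1.86e-05). Csn2, beta-casein, read 11.67, 12.84 and 12.79 in nulliparous and 5.31 to 7.62 (median 5.98) in pre-pubertal arrays. All 6 pre-pubertal arrays were below the floor, and the difference was 6.23 ± 0.49 (adjusted p = 0.000102). Csn1s2a, an alpha-S2-casein, read 10.21, 12.39 and 12.33 in nulliparous and 5.35 to 6.0 (median 5.69) in pre-pubertal arrays. Nulliparous replicate 1 was the lowest of its group for both, yet above every pre-pubertal array, and Csn1s2a, also below the floor before puberty, rose by 5.97 ± 0.43 (adjusted p = 6.57e-05).

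Wap, whey acidic protein, varied widely among the adult glands. It read 8.53, 11.56 and 10.78 in nulliparous arrays, replicate 1 being lowest again, and 6.18 to 6.72 (median 6.35) in pre-pubertal arrays. The groups did not overlap, and Wap rose by 3.89 ± 0.52 log2 units (adjusted p = 0.00143). Csn1s2b, a second alpha-S2-casein, rose by 1.25 ± 0.13 (adjusted p = 0.000456). Csn1s1, alpha-S1-casein, and Lalba, the lactose synthase subunit alpha-lactalbumin, were already high before puberty. Csn1s1 read 13.36, 13.43 and 13.47 in nulliparous arrays, against 8.76 to 13.10 (median 12.33) in pre-pubertal arrays, and Lalba read 13.27, 13.40 and 13.28 against 7.47 to 12.94 (median 11.79). In both, pre-pubertal replicate 2 was far below the rest, no arrays overlapped, and the test did not pass within batch 1 (adjusted p = 0.207 and 0.168). The model of all arrays called both, with differences of 1.53 (adjusted p = 0.007) and 2.10 (adjusted p = 0.00324).

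Genes of the milk fat globule and of transport into milk rose with the caseins. Muc1 and Muc15, mucins of the apical membrane, rose by 3.33 ± 0.23 (adjusted p = 5.45e-05) and 3.77 ± 0.75 (adjusted p = 0.00799). Xdh, xanthine dehydrogenase, Plin2, the coat protein of lipid droplets, and Mfge8, lactadherin, rose by 1.31, 2.01 and 0.90 log2 units. Pigr carries polymeric immunoglobulin across the epithelium, and it read 8.06, 8.35 and 8.12 in nulliparous arrays against 6.03 to 6.46 (median 6.29) in pre-pubertal arrays. That difference of 1.90 ± 0.12 was among the most even of the list (adjusted p = 4.23e-05). Lpo, lactoperoxidase, rose by 0.93 ± 0.23 (adjusted p = 0.0204). Leaving out any 1 array left 12 to 15 members called up, leaving out nulliparous replicate 1 with pre-pubertal replicate 7 left 10, and the fit with the mean of the luminal epithelial list as a covariate called 11.

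Around the caseins stood other secretory genes with differences as large. Clca1, a regulator of calcium-activated chloride channels, had the largest log2 difference of the 10986 genes tested. It read 13.39, 13.35 and 13.42 in nulliparous arrays and 5.15 to 7.71 (median 6.43) in pre-pubertal arrays, 5 of those being below the floor and replicate 8 above it. The difference was 7.0 ± 0.43 (adjusted p = 4.56e-05). Of 11 tested genes of water and ion channels, 7 rose and 0 fell. Among the rises were Ano1, a calcium-activated chloride channel (2.33 ± 0.25), Aqp3, an aquaporin (1.90 ± 0.22), and Scnn1a, a subunit of the epithelial sodium channel (1.16 ± 0.22). Scnn1a was above the floor in fewer than 3 of the 9 arrays. Aqp5, another aquaporin, read 11.22, 10.98 and 9.25 in nulliparous arrays and 5.71 to 9.72 (median 8.09) in pre-pubertal arrays, which overlapped (adjusted p = 0.0579). Leaving out nulliparous replicate 1 with pre-pubertal replicate 7 left 3 of the channel genes called. Slc28a3, a nucleoside transporter, rose by 3.73 ± 0.33. Spt1, a salivary protein gene, read 11.56, 11.40 and 11.65 in nulliparous arrays and 3.48 to 11.17 (median 4.25) in pre-pubertal arrays. Its highest pre-pubertal value was that of replicate 8 alone, the other 5 lying between 3.48 and 4.36, and the difference of 6.26 ± 1.50 (adjusted p = 0.0183) did not pass without nulliparous replicate 1 or without nulliparous replicate 2. Fbxw12, Fmol and Abca13 rose by 4.55, 3.92 and 3.83, and each was lowest among adult glands in replicate 3, at 8.12, 5.59 and 7.58. Fmol and Abca13 were above the floor in fewer than 3 of the 9 arrays. Fmol did not pass without nulliparous replicate 1 or without nulliparous replicate 2.

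**Figure D3:**
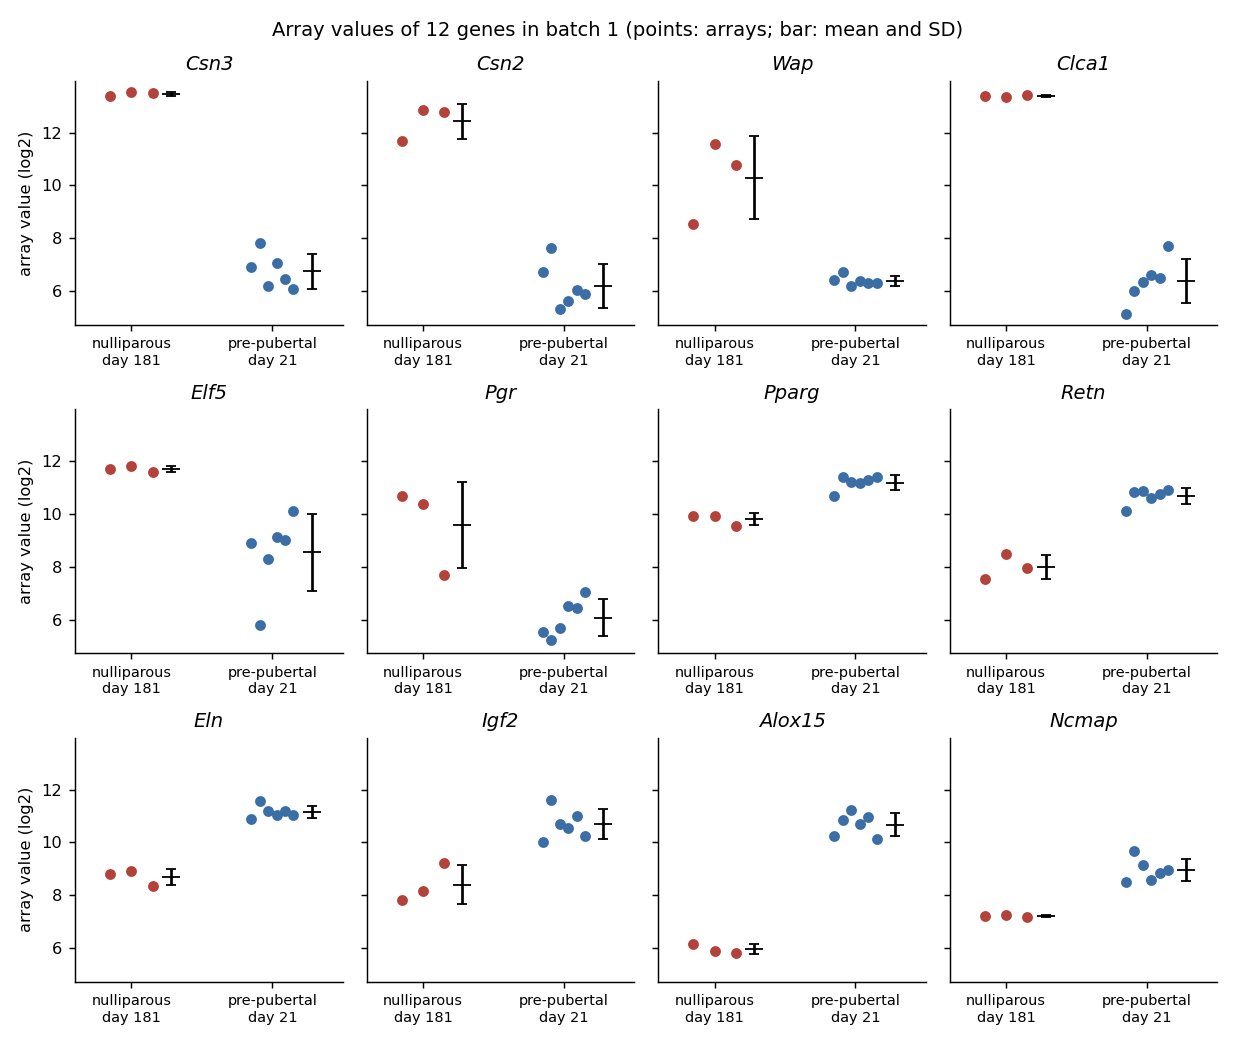
Log2 values of 12 genes on each array of batch 1, nulliparous (red, 3 arrays) left of pre-pubertal (blue, 6 arrays), with the mean and SD of each group as a bar. No panel has overlapping groups. Csn3 and Clca1 are even among adult glands, Wap and Pgr spread over more than 2 log2 units, and Elf5 is lowest in 1 pre-pubertal array (replicate 2).

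The prolactin route to the caseins rose in part. Of 11 tested genes of the prolactin and STAT5 pathway, 5 rose and 1 fell. Prlr, the prolactin receptor, read 9.91, 9.32 and 8.99 in nulliparous arrays and 7.12 to 8.64 (median 7.99) in pre-pubertal arrays, with no overlap (1.53 ± 0.36; adjusted p = 0.0159). Stat5a, the STAT5 form that the mammary gland uses most, read 10.51, 10.78 and 10.36 against 9.14 to 9.62 (median 9.39), and rose by 1.15 ± 0.12 (adjusted p = 0.000516). Its paralogue Stat5b differed by 0.16 ± 0.09 and did not pass (adjusted p = 0.201). Elf5, a transcription factor that alveolar cells need, read 11.70, 11.80 and 11.58 against 5.80 to 10.12 (median 8.96); pre-pubertal replicate 2 was the lowest, and Elf5 rose 8.88-fold (adjusted p = 0.0189). Cish, a feedback inhibitor that STAT5 induces, rose by 0.67 ± 0.18 (adjusted p = 0.0267) and Jak2 by 0.48 ± 0.15 (adjusted p = 0.0456). Socs1, another feedback inhibitor, fell by 0.61 on the log2 scale (adjusted p = 0.0263), although pre-pubertal replicate 8 read 7.65, within the adult range of 7.60 to 7.66. The count of rises fell to 1 without nulliparous replicate 1 or without replicate 2.

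STAT factors bind a palindrome that reads TTCNNNGAA, the same on both strands. It was searched in promoter windows of the RefSeq table (build GRCr8, rat), which run from 250 bases before to 50 bases after each annotated start; this motif was chosen after the values had been seen. Of all 33469 windows, 8.87% held it, as did 6.89% of the 9928 windows of tested genes, 7.76% of the 1018 windows of genes that rose and 5.41% of the 1036 of genes that fell. The casein genes lie together on chromosome 14, and 4 of their 5 windows held it once, beginning 97 to 102 bases before the start; they are shown 5′ to 3′ on the gene's strand with the match in capitals. Csn3 had no match in its window, and neither did Wap, Lalba, Lpo, Xdh, Mfge8, Muc1, Plin2 or Pigr, which says only that these letters are not there. Socs1, which fell, 1 of 2 windows of Prlr, which rose, and Glycam1, a mucin-like gene that was not called, held 1 match each.
Csn2 (chr14:20601701-20601760, plus strand): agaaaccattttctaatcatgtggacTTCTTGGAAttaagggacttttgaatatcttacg
Csn1s2a (chr14:20574540-20574599, minus strand): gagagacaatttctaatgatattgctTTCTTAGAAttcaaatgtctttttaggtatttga
Csn1s2b (chr14:20545685-20545744, minus strand): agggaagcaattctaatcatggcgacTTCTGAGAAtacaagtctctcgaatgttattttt
Csn1s1 (chr14:20638916-20638975, minus strand): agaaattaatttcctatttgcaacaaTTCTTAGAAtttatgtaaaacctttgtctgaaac
The 4 caseins with the motif at nearly the same place differed widely between the ages, by 6.23, 5.97, 1.25 and 1.55 log2 units. Cish, which many tissues induce through STAT5, held 4 matches in its window, the most of the pathway genes searched:
Cish (chr8:116850719-116850868, plus strand): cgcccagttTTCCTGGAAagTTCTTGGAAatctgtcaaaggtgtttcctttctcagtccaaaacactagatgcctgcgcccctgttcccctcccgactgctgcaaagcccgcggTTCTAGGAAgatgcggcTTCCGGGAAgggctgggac

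Epithelial genes as a class were higher in the adult gland, with a wide spread among pre-pubertal arrays. Of 20 tested luminal epithelium genes, 9 rose and 0 fell (median difference 1.53), and the model of all arrays called 19 up. Krt19, a luminal keratin, read 11.09, 10.96 and 10.65 in nulliparous arrays and 7.54 to 10.51 (median 9.27) in pre-pubertal arrays, a difference of 1.68 ± 0.52 (adjusted p = 0.0463). Ehf, an epithelial transcription factor, Cldn4, a tight junction protein, and Spint2, a protease inhibitor, rose by 2.59, 1.69 and 1.42. Other defining markers did not pass. Epcam read 10.47, 10.18 and 9.69 in nulliparous arrays and 4.50 to 10.04 (median 8.84) in pre-pubertal arrays (adjusted p = 0.228), Krt18 read 9.82, 9.86 and 9.52 in nulliparous arrays against 6.92 to 9.60 (median 8.54) in pre-pubertal arrays (adjusted p = 0.0752), and Krt8 and Cdh1 differed by 0.86 and 1.29 (adjusted p = 0.252 and 0.127). For each of these, pre-pubertal replicate 2 was lowest and replicate 8 highest, and replicate 8 lay within or above the adult range. The model of all arrays called all 4 of these up (adjusted p from 0.000834 to 0.0162). The count of 9 luminal genes became 18 without pre-pubertal replicate 8, and it became 4 without pre-pubertal replicate 1, 5 without nulliparous replicate 3, and 2 without pre-pubertal replicate 3 or nulliparous replicate 1 or 2.

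Within the epithelium, 6 of 10 genes of alveolar and luminal progenitor cells, 3 of 11 of hormone-sensing luminal cells and 4 of 9 of basal cells rose, and 0 fell. Pgr, the progesterone receptor of hormone-sensing cells, read 10.67, 10.37 and 7.70 in nulliparous arrays and 5.22 to 7.03 (median 6.07) in pre-pubertal arrays. Even adult replicate 3, the lowest, was above all day 21 arrays, which were all below the floor, and Pgr rose by 3.51 ± 0.65 (adjusted p = 0.00581). Esr1, the estrogen receptor that induces it, differed by -0.11 ± 0.26 and did not pass (adjusted p = 0.808). Gata3, a luminal transcription factor, rose by 1.55 ± 0.41 (adjusted p = 0.0273), while its partner Foxa1 read 9.72, 9.57 and 9.97 against 7.83 to 10.06 (median 9.06) and did not pass (adjusted p = 0.247). Areg, amphiregulin, the growth factor through which estrogen acts on ducts, read 9.86, 9.43 and 7.44 against 6.56 to 8.56 (median 6.99) and did not pass either (adjusted p = 0.0577). Among progenitor genes Lbp, the lipopolysaccharide-binding protein, and its partner Cd14 rose by 2.17 ± 0.41 and 1.14 ± 0.27. Basal genes that rose were Krt14 (2.11 ± 0.49), Krt17 (1.53 ± 0.39), the basal regulator Tp63 (1.61 ± 0.37) and Oxtr, the oxytocin receptor of milk ejection (1.79 ± 0.41). None of these 4 passed without nulliparous replicate 1 or without replicate 2, and of the hormone-sensing genes Prlr and Gata3 then did not pass either. Cd14 and Elf5 of the progenitor list also did not pass without nulliparous replicate 1 or without replicate 2. The progenitor count was 4 to 9 with single arrays left out, and 2 without nulliparous replicate 1 and pre-pubertal replicate 7 together. The hormone-sensing count was 5 without pre-pubertal replicate 8, and 0 without nulliparous replicate 1 and pre-pubertal replicate 7 together. Vdr, the vitamin D receptor, and Cyp24a1, the enzyme it induces to break vitamin D down, rose by 2.36 ± 0.33 and 2.31 ± 0.30. Tgfb3, a TGF-beta form, and Igfbp5, an IGF-binding protein, rose by 1.87 ± 0.27 and 1.07 ± 0.21.

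Since luminal genes differed between the ages, each list was also counted in a fit with the mean of the 20 luminal genes as a covariate, which called 539 genes in all. That mean did not overlap between the groups (9.40 to 9.91 in nulliparous, 6.65 to 9.34 in pre-pubertal arrays). The covariate thus partly stands for age, and a lower count in this fit cannot be told apart from a less precise test. In that fit 11 of the milk genes were still called up, 10 adipocyte and 9 collagen genes down, and 2 luminal genes up and 1 down. Counts that changed little were those of interferon response (7 up), sterol synthesis (4 down), cross-linking (3 down) and the rises in lipid synthesis (4). Other counts of rises fell further, to 2 progenitor, 0 hormone-sensing and 0 basal genes. Rises were also fewer among channel genes (3), prolactin pathway genes (1) and folding genes of the endoplasmic reticulum (1). Counts of falls dropped to 3 imprinted, 2 Schwann cell, 1 endothelial, 1 pericyte, 1 Notch, 1 lipid synthesis and 2 respiration genes.

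Fat cell genes were lower in the adult gland. Of 21 tested white adipocyte genes, 15 fell and 0 rose, with a median difference of -0.92 log2 units. The falls included Pparg and Cebpa, transcription factors that set fat cell identity. Pparg read 9.94, 9.94 and 9.55 in nulliparous arrays and 10.66 to 11.41 (median 11.25) in pre-pubertal arrays, and Cebpa read 9.36, 9.57 and 9.07 against 10.32 to 10.92 (median 10.62). Neither overlapped, and they fell by 1.38 ± 0.17 and 1.26 ± 0.15 on the log2 scale (adjusted p = 0.000923 and 0.000884). Retn, the adipocyte hormone resistin, had the largest fall of the list, with 7.55, 8.49 and 7.94 in nulliparous arrays against 10.10 to 10.90 (median 10.80) in pre-pubertal arrays (-2.68 ± 0.23; adjusted p = 0.000174). Slc2a4, the insulin-responsive glucose transporter, and Acvr1c, the activin receptor ALK7, fell by 1.60 and 1.60 log2 units, and Plin1 and Fabp4 by 1.32 and 0.92. Adipoq, adiponectin, fell by 0.54, with 12.75, 12.64 and 12.08 in nulliparous arrays against 12.63 to 13.18 (median 13.07) in pre-pubertal arrays, which overlapped (adjusted p = 0.0438). Lep, leptin, read 9.71, 9.31 and 8.29 against 7.51 to 10.15 (median 8.80), spread over both groups and did not pass (adjusted p = 0.714). Leaving out single arrays left 11 to 17 members called down. The fit of all 15 arrays of both groups without a batch term, which brings in the 2 fattier adult glands of batch 3, called 16. That fit also adds the 4 pre-pubertal arrays of batch 2. In the added arrays stage, batch and kit cannot be told apart, so the part of fat content in these falls was not tested.

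Of 20 tested genes of fatty acid and triglyceride synthesis, 5 rose, 5 fell and 10 did not pass. The 5 that rose make or modify fatty acids or supply their precursors. Olah, the thioesterase that ends chains at medium length in milk fat, read 12.78, 12.82 and 12.51 in nulliparous arrays and 6.57 to 10.23 (median 8.29) in pre-pubertal arrays (19.6-fold; adjusted p = 0.00345). Fads1 and Fads2, the desaturases of polyunsaturated fatty acids, rose by 1.19 ± 0.17 and 1.42 ± 0.22, Acacb, an acetyl-CoA carboxylase, by 1.63 ± 0.14, and Me1, the malic enzyme that supplies reducing power, rose as well. The 10 that did not pass are also of fatty acid supply or its control, with differences of both signs, such as Acly at 0.26 and Scd at -1.07. The 5 that fell act in the assembly of triglyceride. Agpat2 read 9.89, 10.0 and 9.49 against 10.82 to 11.80 (median 11.54) and fell by 1.67 ± 0.20 (adjusted p = 0.000884). Dgat1, Dgat2, Gpam and Lpin1 fell by 0.95, 0.76, 0.72 and 0.70 log2 units (adjusted p = 0.00681, 0.0436, 0.0215 and 0.0171). Outside the list, Gpat3, an acyltransferase of the first step, fell by 2.05 ± 0.15, and Pnpla3, a lipid droplet hydrolase, by 2.0 ± 0.43. Fabp3, a fatty acid carrier of muscle and of lactating gland, rose by 4.10 ± 0.30, with 10.07, 11.52 and 11.34 in nulliparous arrays against 6.63 to 7.41 (median 6.78) in pre-pubertal arrays. With single arrays left out the falls ranged from 4 to 8, with 8 without pre-pubertal replicate 1. Without nulliparous replicate 1 and pre-pubertal replicate 7 together they were 3. Dgat2 did not pass without any single array other than pre-pubertal replicate 1, and Gpam did not pass without nulliparous replicate 2 or 3.

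**Figure D4:**
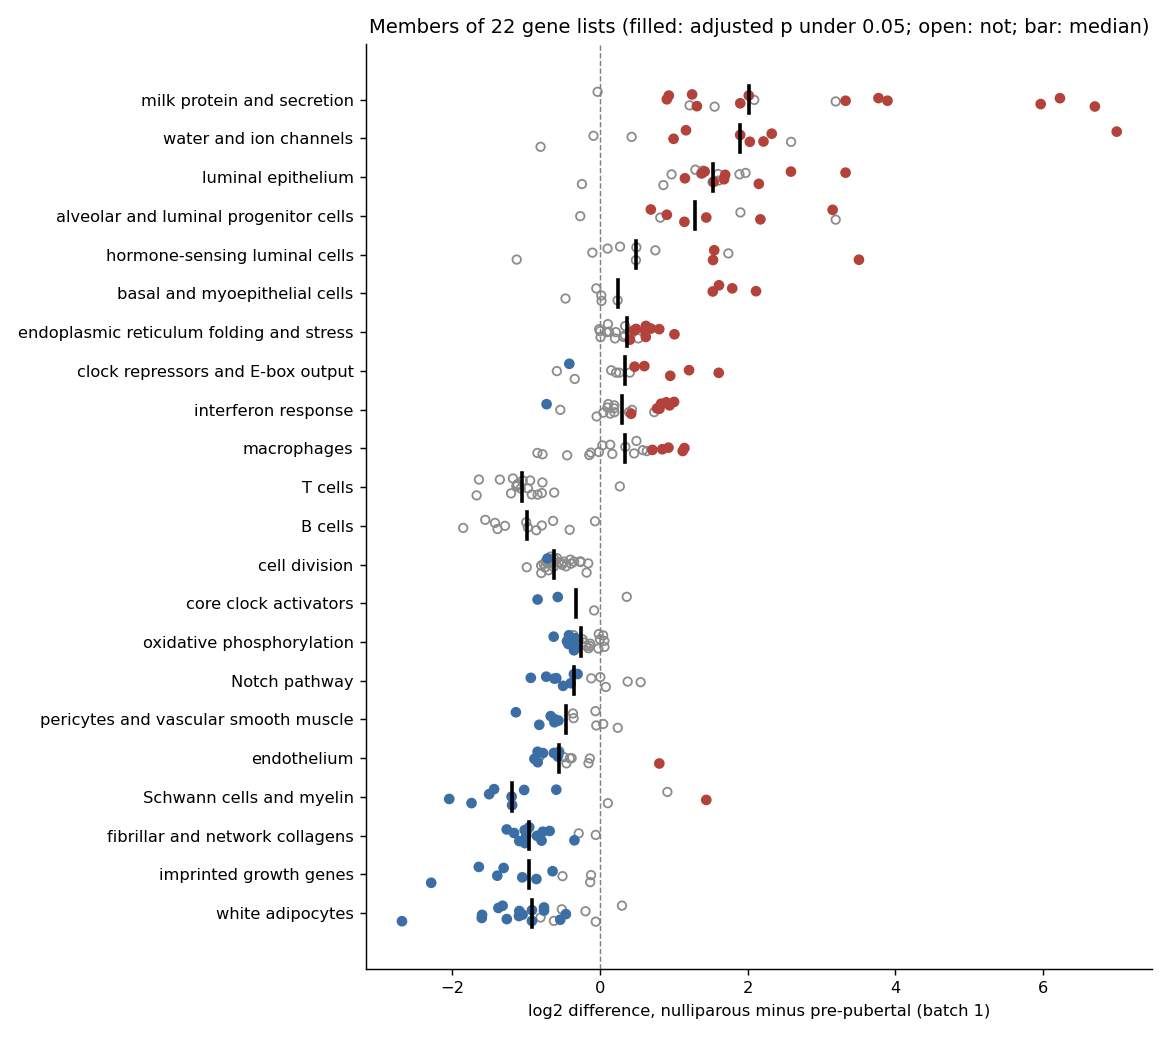
Log2 difference, nulliparous minus pre-pubertal in batch 1, of each tested member of 22 gene lists. Filled red and blue points rose and fell at an adjusted p under 0.05, open points did not pass, and the bar is the median of the list. The medians of milk, channel and epithelial lists lie to the right of 0, those of adipocyte, collagen, imprinted, nerve sheath and vessel lists to the left, and those of the T cell and B cell lists to the left with 0 members called.

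Collagen genes were lower in the adult gland. Of 15 tested, 13 fell and 0 rose (median difference -0.96). Col1a1, the main chain of collagen I, read 12.09, 12.70 and 12.32 in nulliparous arrays and 13.0 to 13.57 (median 13.42) in pre-pubertal arrays, and fell 2-fold (adjusted p = 0.00276). Col3a1 fell by 1.0 ± 0.13 and Col4a1, of basement membranes, by 1.10 ± 0.18, while Col6a6, a chain outside the list, fell by 1.96 ± 0.21. Eln, elastin, and Lox, the lysyl oxidase that cross-links elastin and collagen, had larger falls. Eln read 8.80, 8.90 and 8.34 against 10.88 to 11.58 (median 11.11), and Lox read 8.71, 8.87 and 8.30 against 10.09 to 11.18 (median 11.0). Neither overlapped, and they fell 5.55-fold and 4.71-fold (adjusted p = 5.45e-05 and 0.000435). Pcolce, which enhances procollagen cleavage, and Plod2, a lysyl hydroxylase, were the other 2 of 4 falls among 23 genes of elastic fibres and cross-linking, at -1.35 and -0.90. Plod2 (adjusted p = 0.038) did not pass without nulliparous replicate 1 or 2 or pre-pubertal replicate 1, 2, 3, 6 or 7. Fbn1, fibrillin-1, read 10.68, 11.50 and 10.46 against 10.99 to 11.97 (median 11.74) and did not pass (adjusted p = 0.0614). Of 16 genes of matricellular proteins and proteoglycans 4 fell and 2 rose (median difference 0.04). Thbs4, a thrombospondin, fell by 1.40 ± 0.21, and Fmod, the collagen-binding fibromodulin, rose by 0.55 ± 0.16 (adjusted p = 0.0347). With single arrays left out these counts ranged from 2 (without pre-pubertal replicate 2, 3, 6 or 7 or nulliparous replicate 1 or 3) to 5 falls, and from 0 to 2 rises, with 2 only without pre-pubertal replicate 8. Of 19 matrix proteases and inhibitors, 1 rose and 1 fell. The collagen count was 10 to 14 with single arrays left out, and 7 without nulliparous replicate 1 and pre-pubertal replicate 7.

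Genes of early growth fell together. Of 10 tested imprinted growth genes, which are expressed from 1 parental copy, 7 fell and 0 rose (median difference -0.96). Igf2, the fetal insulin-like growth factor, read 7.82, 8.15 and 9.23 in nulliparous arrays and 10.03 to 11.60 (median 10.63) in pre-pubertal arrays. Adult replicate 3 was the highest of its group, no arrays overlapped, and Igf2 fell 4.88-fold (adjusted p = 0.00363). Zim1, a zinc finger gene, Plagl1, a growth regulator, and Gnas, whose locus encodes a G protein alpha subunit, fell by 1.64 ± 0.21, 1.31 ± 0.25 and 1.39 ± 0.25. Grb10, an inhibitor of insulin signals, Dlk1, an inhibitor of fat cell formation, and Nnat, neuronatin, fell by 0.86, 0.64 and 1.05. Dlk1 was above the floor in fewer than 3 of the 9 arrays, and did not pass without nulliparous replicate 1 or 2 or pre-pubertal replicate 7. Nnat (adjusted p = 0.0464) did not pass without nulliparous replicate 1, 2 or 3 or pre-pubertal replicate 2, 6, 7 or 8. Igf2bp2, an RNA-binding protein of the fetal growth programme, read 6.23, 6.09 and 6.13 against 7.60 to 7.99 (median 7.71) and fell by 1.60 ± 0.10 (adjusted p = 5.05e-05). Igfbp3, the main IGF carrier of blood, fell 5.5-fold, with 8.75, 8.77 and 10.14 against 11.16 to 12.10 (median 11.74) (adjusted p = 0.00113). Igf1, the postnatal growth factor, did not pass, with 12.01, 11.98 and 11.70 in nulliparous arrays against 11.63 to 12.29 (median 12.21) in pre-pubertal arrays (adjusted p = 0.342).

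The renin-angiotensin genes Agt, angiotensinogen, and Agtr2, the angiotensin receptor type 2 that is abundant in fetal tissue, were among the 15 largest falls. Agt read 8.36, 8.76 and 8.50 in nulliparous arrays and 10.07 to 11.10 (median 10.67) in pre-pubertal arrays (-2.10 ± 0.19; adjusted p = 0.000286). Agtr2 read 5.08, 4.97 and 4.86 against 6.60 to 8.31 (median 8.03) (-2.80 ± 0.34; adjusted p = 0.000898), below the floor in all adult glands. The largest fall of all was that of Alox15, a lipoxygenase of eosinophils and macrophages. It read 6.16, 5.91 and 5.80 in nulliparous arrays and 10.11 to 11.22 (median 10.77) in pre-pubertal arrays, a difference of -4.72 ± 0.23 with all adult arrays below the floor (adjusted p = 1.86e-05). Of the 6 tested genes of its list, eosinophils and type 2 recruitment, it alone fell and 4 rose, among them Ccl11, the eosinophil chemokine eotaxin (1.80 ± 0.29). Prodh, proline dehydrogenase, fell by 1.99 ± 0.21.

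Nerve sheath and vessel genes fell as well. Of 11 tested Schwann cell and myelin genes 8 fell and 1 rose (median difference -1.19). Ncmap, a protein of myelin membranes, read 7.21, 7.25 and 7.17 in nulliparous arrays and 8.51 to 9.69 (median 8.90) in pre-pubertal arrays, and fell by 1.74 ± 0.23 (adjusted p = 0.00125). Scn7a, a sodium channel of Schwann cells, Mal, Prx, Pmp22 and Mbp, proteins of myelin, fell by 2.04, 1.50, 1.19, 1.03 and 0.59. Pmp2, a lipid carrier of peripheral myelin, and Ugt8, the enzyme of its galactolipids, are outside the list and fell by 2.02 ± 0.33 and 2.05 ± 0.32. The 1 that rose was Sox10 (1.44 ± 0.28), a regulator of Schwann cells that mammary epithelium also expresses and that the progenitor list holds. Of 16 endothelial genes 7 fell and 1, the peptide gene Apln, rose, of 12 pericyte and smooth muscle genes 6 fell and 0 rose, and of 13 Notch pathway genes 8 fell and 0 rose. Cdh5, the cadherin of endothelial junctions, read 10.69, 10.48 and 10.25 against 11.12 to 11.53 (median 11.30) and fell by 0.85 ± 0.12 (adjusted p = 0.00164). Cldn5 and Vwf, of endothelium, fell by 0.89 and 0.56, and Abcc9 and Kcnj8, the subunits of a pericyte potassium channel, by 1.14 ± 0.12 and 0.56 ± 0.09. The receptors Notch1 and Notch3 fell by 0.36 and 0.62, and Dll4, the ligand of vessels, by 0.73. Dll4 (adjusted p = 0.038) did not pass without nulliparous replicate 1, 2 or 3 or pre-pubertal replicate 1, 2, 3 or 7. The endothelial falls were 4 without nulliparous replicate 2 or without replicate 3, and the Notch falls were 4 without either of these and 5 without nulliparous replicate 1 or pre-pubertal replicate 2, 3 or 7. The globin genes Hbb-b1 and Hba-a1, the only 2 tested of the red blood cell list, also fell, by 1.66 ± 0.16 and 1.01 ± 0.13.

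Genes of the circadian clock changed in both directions. In this clock BMAL1, with CLOCK or NPAS2, drives genes through a DNA element called the E-box, and the products of some of these genes, such as the Per and Cry families, repress it. Of 4 tested activators, Bmal1 and Npas2 fell. Bmal1 read 7.62, 7.74 and 7.70 in nulliparous arrays and 8.07 to 8.93 (median 8.56) in pre-pubertal arrays, and Npas2 read 8.69, 8.67 and 8.20 against 9.02 to 9.27 (median 9.07). Neither pair of groups overlapped (-0.85 ± 0.17 and -0.57 ± 0.11; adjusted p = 0.00915 and 0.00813), and Clock differed by -0.08 ± 0.09 (adjusted p = 0.561). Of 12 repressors and output genes, 5 rose and 1 fell. Per2, a repressor, read 10.31, 10.0 and 9.97 against 8.56 to 9.16 (median 8.91) and rose by 1.21 ± 0.15 (adjusted p = 0.000941). Dbp, an output transcription factor, rose by 0.95 ± 0.13, Per3 by 0.60 ± 0.12, Bhlhe41, a repressor at E-boxes, by 1.61 ± 0.29, and Tef, a relative of Dbp, by 0.47 ± 0.15 (adjusted p = 0.0476). Tef did not pass without nulliparous replicate 1 or 2 or pre-pubertal replicate 3, 6 or 7. Nfil3, which competes with Dbp and Tef for their sites, fell by 0.42 ± 0.11 (adjusted p = 0.0272), with all 9 arrays below the floor. It did not pass in the model of all arrays (adjusted p = 0.0582), nor without nulliparous replicate 2 or 3 or pre-pubertal replicate 6. Per1, Cry1 and Nr1d1 did not pass, with differences of -0.59, 0.22 and 0.15. Since each stage was collected on 1 day and the hour is not given in the labels, age and hour of collection cannot be told apart for these genes.

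The E-box CACGTG, a palindrome, was in 6.42% of all promoter windows, 9.17% of those of tested genes, 9.23% of those of genes that rose and 9.56% of those of genes that fell. Among the called clock genes, Tef and Bhlhe41 held it once each; the windows of Per2, Per3, Dbp, Nfil3, Bmal1 and Npas2 did not. Among those not called, Bhlhe40 and 1 of 2 windows of Nr1d1 held it. The stretches of the 2 that did are shown on the gene's strand (RefSeq, GRCr8), with the E-box in capitals.
Tef (chr7:115206602-115206661, plus strand): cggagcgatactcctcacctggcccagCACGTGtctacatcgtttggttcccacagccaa
Bhlhe41 (chr4:180569371-180569430, minus strand): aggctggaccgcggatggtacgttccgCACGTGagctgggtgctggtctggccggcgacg
The match began 198 bases before the annotated start in Tef and 48 bases before it in Bhlhe41.

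Folding genes of the endoplasmic reticulum, the compartment where secreted proteins mature, rose: 10 of 22 rose and 0 fell. Hspa5, its main chaperone, read 12.92, 12.85 and 12.84 in nulliparous arrays and 11.94 to 12.55 (median 12.27) in pre-pubertal arrays (0.62 ± 0.13; adjusted p = 0.0117). Dnajc3 and Sdf2l1, cofactors of that chaperone, rose by 0.61 ± 0.09 and 0.69 ± 0.12, and Herpud1, of protein degradation there, by 0.40 ± 0.08. The count was 6 without nulliparous replicate 1. Mitochondrial respiration genes fell in 9 of 24 cases and rose in 0, by small amounts: Cyc1, cytochrome c1, fell by 0.63 ± 0.10 and Atp5f1a, of ATP synthase, by 0.45 ± 0.08. That count ranged from 3 (without nulliparous replicate 2) to 14 (without pre-pubertal replicate 1). It was 4 without nulliparous replicate 1 or 3, 5 without pre-pubertal replicate 2 or 6, and 0 in the fit of 15 arrays without a batch term. Of 12 sterol synthesis genes 5 fell and 0 rose, among them Insig1, the sterol sensor partner, and Msmo1, an enzyme of the pathway (-1.14 ± 0.21 and -0.78 ± 0.17), but 1 was called without nulliparous replicate 1 or 2, and 3 without pre-pubertal replicate 3, 6 or 7.

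Lymphocyte genes gave no calls in batch 1. Of 18 T cell, 12 B cell and 10 MHC class II genes, limma called 0 in batch 1, with 0, 0 and 0 at an unadjusted p under 0.05, and 1, 0 and 0 fell in the model of all arrays. Without pre-pubertal replicate 8 alone, 9 T cell genes were called down. Cd3e, a subunit of the T cell receptor complex, read 7.64, 7.86 and 10.35 in nulliparous arrays and 7.50 to 10.76 (median 10.33) in pre-pubertal arrays (adjusted p = 0.31). Cd79a, of the B cell receptor, read 7.47, 7.29 and 9.89 against 7.42 to 9.86 (median 9.34) (adjusted p = 0.375), and Ccl19, a chemokine of lymph node stroma, read 6.36, 6.37 and 9.85 against 6.95 to 11.52 (median 11.16) (adjusted p = 0.098). In all 3 genes nulliparous replicate 3 was high and pre-pubertal replicate 8 low, so that the groups overlapped. Of 12 lymph node genes 2 fell. Madcam1, a vascular addressin of homing lymphocytes, fell by 1.09 ± 0.14 (adjusted p = 0.00113). Cxcl13, the B cell chemokine, fell by 1.34 ± 0.40 (adjusted p = 0.0403), a call lost without any 1 of nulliparous replicates 1 and 2 and pre-pubertal replicates 1, 2, 3, 6 and 7. Of 28 cell division genes 1 fell, Tyms, which makes thymidylate for DNA synthesis (-0.72 ± 0.17; adjusted p = 0.0188). Mki67, the nuclear marker of dividing cells, read 8.31, 9.20 and 10.60 against 9.48 to 11.05 (median 9.90) and did not pass (adjusted p = 0.334), nulliparous replicate 3 and pre-pubertal replicate 8 being the highest of their groups. Without these 2 arrays, 16 of the 28 were called down. Of 11 genes of cell cycle exit 3 fell and 1 rose. The cell cycle inhibitors Cdkn1a and Cdkn2c fell by 0.71 ± 0.11 and 1.64 ± 0.18, and Rb1, the retinoblastoma protein, rose by 1.11 ± 0.09. Cdkn1a was above the floor in fewer than 3 of the 9 arrays.

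Innate immune lists went different ways, where over all genes tested 10.8% rose and 10.2% fell. Of 6 tested neutrophil genes 2 fell, Mpo, myeloperoxidase (-0.93 ± 0.18), and Cxcr2, a chemokine receptor (-0.86 ± 0.16), and 0 rose. All 6 fell in the model of all arrays and without pre-pubertal replicate 8. Of 19 macrophage genes 5 rose and 0 fell, among them Trem2, a lipid receptor (0.93 ± 0.09), Folr2, a folate receptor of resident macrophages (1.12 ± 0.15), and Adgre1, the F4/80 antigen (0.84 ± 0.15). The other 14 did not pass and had differences of both signs. Among these 14, the macrophage markers Cd68 and Csf1r differed by 0.34 and -0.15 (adjusted p = 0.346 and 0.715). Cd14, another of the 5 that rose, is also in the progenitor list. The count of rises was 3 without nulliparous replicate 1 or 2. Without nulliparous replicate 3 and pre-pubertal replicate 8 together, 8 rose and 4 fell. Of 20 interferon response genes 7 rose and 1 fell. Oasl and Oas2, of the antiviral oligoadenylate system, rose by 1.0 ± 0.10 and 0.94 ± 0.12, Irf7, a transcription factor of the response, by 0.83 ± 0.13, and Mx2 by 0.80 ± 0.11, with 7.0, 7.21 and 7.26 in nulliparous arrays and 6.20 to 6.50 (median 6.34) in pre-pubertal arrays, all below the floor. In the model of all arrays Mx2 did not pass (adjusted p = 0.151). Rsad2, viperin, fell by 0.73 ± 0.18 (adjusted p = 0.0222). Of 8 mast cell genes 3 fell, among them the tryptase Tpsb2 and Hdc, which makes histamine (-1.31 ± 0.33 and -0.79 ± 0.19); 0 were called without nulliparous replicate 1 and 1 without replicate 3. The lipid mediator genes Pla2g2a, a secreted phospholipase, and Ptges, a prostaglandin E synthase, rose by 2.40 ± 0.16 and 0.71 ± 0.13. Of 12 retinoid genes 5 rose and 2 fell, and the rises included Crabp2, a retinoic acid carrier (1.52 ± 0.26), and Rdh10, an enzyme of retinal formation (1.05 ± 0.14). Sfrp1, a secreted inhibitor of Wnt, rose by 1.52 ± 0.14. The retinoid rises were 3 without nulliparous replicate 1 or 2, and the falls were 4 without pre-pubertal replicate 1 and 1 without pre-pubertal replicate 3 or nulliparous replicate 3.

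Some of the most even differences lay outside these groups. Scgb1d2-ps1, annotated as a pseudogene of a secretoglobin, had the smallest adjusted p of all genes tested. It read 8.42, 8.75 and 8.78 in nulliparous arrays and 3.84 to 4.45 (median 4.25) in pre-pubertal arrays (4.49 ± 0.17; adjusted p = 4.71e-06), and signal from a near-identical paralogue cannot be told from it on the array. Mmp12, the macrophage elastase, was chosen after its values were seen, for its small p. It read 9.93, 10.13 and 9.25 against 5.80 to 6.29 (median 6.18), all below the floor (3.62 ± 0.19; adjusted p = 1.86e-05). Gsta1, a glutathione transferase of detoxification, rose by 1.51 ± 0.19. Less even was Pi16, a marker of adventitial fibroblasts, which rose by 1.73 ± 0.43 (adjusted p = 0.0206) and did not pass without nulliparous replicate 1 or 2. Of the 16 tested fibroblast genes 2 rose, 2 fell and 12 did not pass, with a median difference of -0.16.

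Batch 1 also held peri-pubertal glands at day 42 and pubertal glands at day 63 (3 arrays each), which place the differences in time. The contrast of nulliparous and pubertal glands, in a fit of the 18 arrays of batch 1, called 250 genes (2.28%), 127 up (1.16%) and 123 down (1.12%). It shares the nulliparous arrays with the main comparison, and without pubertal replicate 3 the count was 28. Csn3 averaged 6.76 ± 0.66 at day 21 (SD, n = 6), 12.88 ± 0.28 at day 42, 13.35 ± 0.20 at day 63 (SD, n = 3 each) and 13.46 ± 0.07 at day 181 (SD, n = 3). Most of the measured difference lay between day 21 and day 42. From day 42 on its signal was close to the highest on the arrays, so a later rise may not show. Its nulliparous minus pubertal difference was 0.11 ± 0.32 (adjusted p = 0.901). Clca1 averaged 6.39 ± 0.83, 12.65 ± 0.78, 12.97 ± 0.62 and 13.39 ± 0.04 at the 4 ages, and Pgr averaged 6.07 ± 0.70, 9.64 ± 1.41, 9.18 ± 1.57 and 9.58 ± 1.64, the same course with more spread. Falls with this course were those of Alox15 (10.68 ± 0.43, 7.59 ± 0.35, 6.40 ± 0.24 and 5.96 ± 0.19) and Igf2 (10.69 ± 0.56, 8.09 ± 0.09, 7.80 ± 0.09 and 8.40 ± 0.74). For Clca1, Pgr, Alox15 and Igf2 the nulliparous minus pubertal test did not pass (adjusted p = 0.714, 0.877, 0.374 and 0.407).

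Other genes still differed between day 63 and day 181. Lox averaged 10.86 ± 0.40 at day 21, 11.16 ± 0.10 at day 42, 10.70 ± 0.39 at day 63 and 8.63 ± 0.30 at day 181, with a nulliparous minus pubertal difference of -2.08 ± 0.25 (adjusted p = 0.000859). Eln and Retn differed by -1.40 ± 0.19 (adjusted p = 0.00195) and -1.62 ± 0.23 (adjusted p = 0.00274) between nulliparous and pubertal glands, Zim1 by -2.03 ± 0.38 (adjusted p = 0.0145) and Col3a1 by -0.98 ± 0.23 (adjusted p = 0.0353). The falls of these 5 genes were thus in whole or in part later than day 63. Few members of their lists were called lower than at day 63: 2 of 15 collagen, 2 of 23 elastic fibre and cross-linking, 2 of 10 imprinted and 1 of 21 white adipocyte genes. Single genes of this contrast were not checked with arrays left out. Among rises, Fabp3 differed by 2.50 ± 0.52 (adjusted p = 0.0225), Pigr by 1.35 ± 0.21 (adjusted p = 0.00555), Spink8, a protease inhibitor gene, by 1.34 ± 0.24 (adjusted p = 0.0135) and Stat5a by 0.78 ± 0.15 (adjusted p = 0.0154).

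A further course went up and down. Per2 averaged 8.89 ± 0.24, 7.72 ± 0.20, 8.24 ± 0.25 and 10.10 ± 0.19 at days 21, 42, 63 and 181, and Npas2 averaged 9.10 ± 0.09, 10.73 ± 0.34, 10.63 ± 0.38 and 8.52 ± 0.28. The nulliparous minus pubertal differences were 1.86 ± 0.19 (adjusted p = 0.000206) and -2.11 ± 0.20 (adjusted p = 0.000144), and that of Bmal1 was -1.45 ± 0.25 (adjusted p = 0.00813). These 3 genes at day 42 and day 63 thus lay outside the range between day 21 and day 181. Pcsk2, a prohormone convertase, was highest at day 63, with 5.74 ± 0.19, 5.88 ± 0.57, 7.90 ± 0.54 and 6.49 ± 0.09 at the 4 ages, and its nulliparous minus pubertal difference was -1.41 ± 0.27 (adjusted p = 0.0154) although it rose by 0.75 against day 21. Pcsk2 was above the floor in fewer than 3 of the 9 arrays of the main comparison. Rsad2 was at its highest at day 63 as well (7.93 ± 0.22), and fell to 6.76 ± 0.13 in nulliparous glands (adjusted p = 0.00813).

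**Figure D5:**
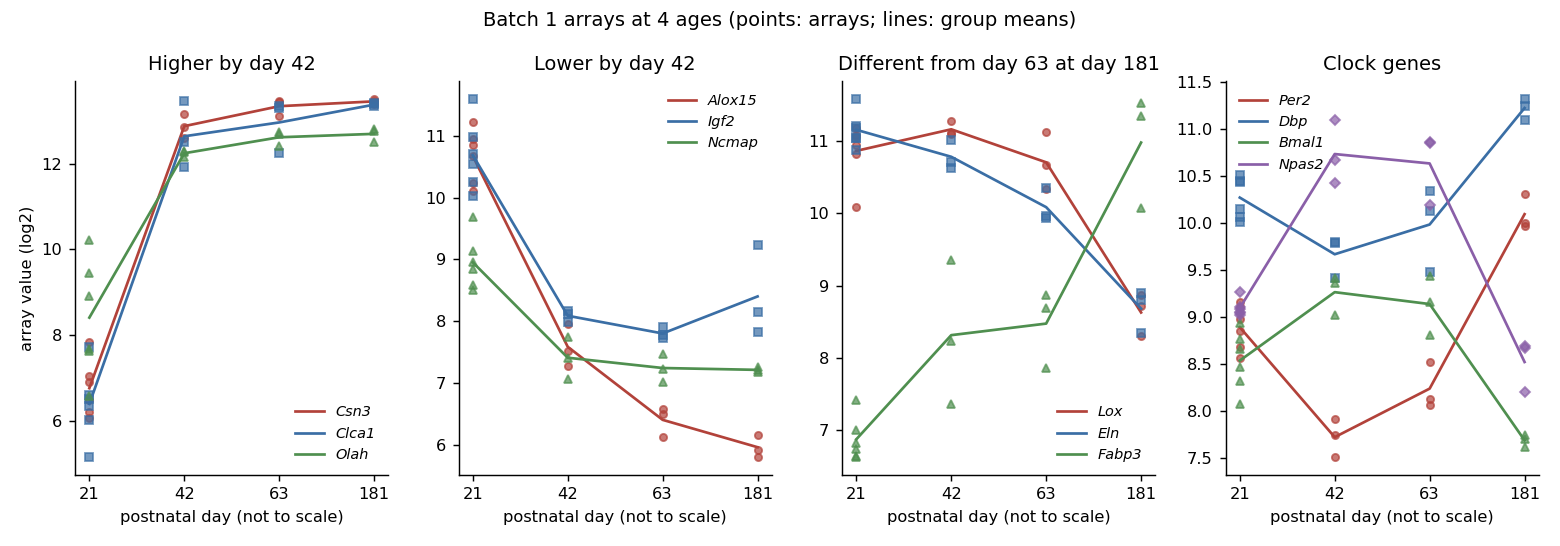
Log2 values of batch 1 arrays at postnatal days 21 (6 arrays), 42, 63 and 181 (3 arrays each), for 3 genes that were higher by day 42, 3 that were lower by day 42, 3 genes that still differed between day 63 and day 181, and 4 clock genes. Points are arrays and lines join group means. Csn3, Clca1 and Olah are near their adult level by day 42, Lox and Eln fall between day 63 and day 181, and Per2 and Bmal1 run in opposite directions.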

How the data were processed

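Affymetrix whole-transcript arrays were hybridised with labelled RNA of whole rat mammary glands. The authors deposited log2 values of 36685 probe sets on 33 arrays, made with Affymetrix Expression Console and RMA per the submitters' processing notes; software versions and a genome build are not given there. RMA corrects background, normalizes by quantiles and summarises probes. Deposited values ran from 2.405 to 14.228 with 0 missing. Whether RMA was run on all batches at once is not stated, and quantile normalization can hide a shift of the whole distribution. Precision here is limited by how many arrays each group has.

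Of the probe sets, 18511 had 1 gene symbol in the platform annotation, 575 several and 17599 none, and 18394 were matched to current symbols by gene identifier. Only single-symbol probe sets were used, the one of highest mean for the 291 of 18166 symbols with more than 1. Genes over the median of all values of single-symbol probe sets (7.645) in at least 3 of 33 arrays were tested, 10986 in all. limma 3.58.1 in R 4.3.3 (intensity trend, empirical Bayes) compared 3 nulliparous with 6 pre-pubertal arrays of batch 1, with adjusted p under 0.05 as the threshold; the scripts were tested on simulated data. A model of all 33 arrays with stage and batch terms and a fit of the 18 arrays of batch 1 gave the other values. The p-values set the difference between groups against the spread between these arrays within groups, moderated across genes.

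Genes were named by rule: the 15 largest rises and as many falls (called, no overlap between the groups), for each of 61 gene lists with at least 3 called members the 4 most significant or fewer, a fixed panel of markers, and other list members. The lists, panel and comparisons were chosen with earlier results of these data known, so a list's direction is a description. Of 1049 listed genes 936 were matched and 798 tested (742 distinct). Promoter windows (300 bases) came from RefSeq, GRCr8. Alternatives covered the arrays, batch terms, filters, normalization, probe set choice, covariates for 3 cell lists, thresholds and leaving out each array. Figures were drawn with matplotlib 3.10.9.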

Additional observations from a re-analysis of the deposited data

Results flagged for a closer look

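The 6 pre-pubertal arrays of batch 1 were checked for an array far from the other 5 in each gene and list mean described, and 28 of 174 genes and 9 of 34 lists had one. An array was marked where its gap to the nearest other, divided by the range of the 6, passed Dixon's critical value, which chance passes in about 1 in 20 groups of independent values; these genes and lists are not independent. The 3 nulliparous arrays were too few to check. Values are log2, with the range of the other 5 arrays beside each.

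Replicate 1 stood apart in 16 of these, fat cell, matrix and mast cell genes among them. It was low in Adipoq (12.63, the others 13.06 to 13.18), Cyc1 (10.55, the others 10.85 to 11.02), Dgat2 (11.15, the others 11.95 to 12.27) and Fbn1 (10.99, the others 11.61 to 11.97). Low values were those of Gnas (7.79, the others 8.46 to 8.74), Gpam (10.63, the others 11.20 to 11.50), Hdc (6.94, the others 7.63 to 7.85) and Lox (10.09, the others 10.82 to 11.18). It was also low in Mpo (8.21, the others 8.95 to 9.13), Pcolce (10.22, the others 10.95 to 11.20), Pparg (10.66, the others 11.16 to 11.41) and Retn (10.10, the others 10.60 to 10.90). Further low values were those of Tpsb2 (8.05, the others 9.17 to 9.68), the mean of the white adipocytes list (10.81, the others 11.28 to 11.50), the mean of the oxidative phosphorylation list (10.26, the others 10.54 to 10.65) and the mean of the mast cells list (7.51, the others 8.41 to 8.75).

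Replicate 2, the array of lowest luminal mean, stood apart in 7. It was low in Csn1s1 (8.76, the others 11.92 to 13.10), Ehf (5.84, the others 8.24 to 9.54), Lalba (7.47, the others 11.29 to 12.94) and Muc15 (5.11, the others 7.85 to 9.21). Low values were those of the mean of the milk protein and secretion list (8.01, the others 8.54 to 8.85) and the mean of the prolactin and STAT5 pathway list (8.56, the others 8.89 to 9.06). It was high in Zim1 (9.28, the others 8.29 to 8.63).

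Replicate 3 stood apart in 3. It was low in Mmp12 (5.80, the others 6.14 to 6.29) and Oas2 (6.20, the others 6.45 to 6.57). It was high in Nfil3 (7.62, the others 7.23 to 7.35).

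Replicate 7 stood apart in 1. It was high in the mean of the skeletal muscle list (8.19, the others 6.71 to 6.87).

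Replicate 8, the array of highest luminal mean, stood apart in 10. It was low in Ccl19 (6.95, the others 10.29 to 11.52), Cd3e (7.50, the others 9.57 to 10.76), Cd79a (7.42, the others 9.04 to 9.86) and Socs1 (7.65, the others 8.33 to 8.42). Low values were those of the mean of the T cells list (6.86, the others 9.14 to 10.25), the mean of the B cells list (6.56, the others 8.53 to 9.68) and the mean of the lymph node stroma and chemokines list (8.25, the others 9.93 to 10.73). It was high in Areg (8.56, the others 6.56 to 7.28), Cyp24a1 (6.35, the others 5.69 to 5.91) and Spt1 (11.17, the others 3.48 to 4.36).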

How the results depend on the processing

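The count of 2305 genes stayed within 1.5 times under most alternatives, including 2302 to 3206 in the fits that add arrays of other batches. It moved to 4367 with array weights, to 539 with the luminal epithelial mean as a covariate and to 933 at an adjusted p under 0.01. At a log2 difference of at least 1 it was 497, where 69.0% of calls were rises against 51.3% in all. Leaving out 1 array gave 1143 to 2881 genes. Among alternatives chosen after seeing the data, 3466 genes were called without nulliparous replicate 3 and pre-pubertal replicate 8, which stand apart in lymphocyte genes. The count was 862 without nulliparous replicate 1 and pre-pubertal replicate 7, which are high in muscle genes. It was 2104 without pre-pubertal replicates 2 and 8, the arrays of lowest and highest luminal mean in their group. The nulliparous against pubertal count of 250 moved to 29 with the 6 arrays alone, to 469 in the model of all arrays, to 36 at an adjusted p under 0.01, and to between 28 and 269 with 1 array left out. Of 152 called genes named, 151 kept their sign in every alternative that tested them, and 56 were called in each of those. The stricter filters left some of these genes untested. Of the called genes named, 31 were no longer called without nulliparous replicate 1, 37 without nulliparous replicate 2 and 3 to 14 without any other single array. Cyc1 changed sign, to 0.193 in the fit of 15 arrays without a batch term; the cause was not tested. With 3 adult arrays in 1 batch, genes of low signal and small differences are those least well resolved.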
